A study of Mus musculus with 19 samples.

Results

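The 9 genes described here encode protein disulfide isomerases and close relatives of the endoplasmic reticulum (ER): P4hb, Pdia3, Pdia4, Pdia5, Pdia6, Txndc5, Tmx1, Erp44 and Erp29. They were found by matching the gene identifiers of a count table of 51789 mouse genes, version numbers dropped, to these symbols, and each symbol matched 1 row. The table covers 19 RNA sequencing libraries of dorsal hippocampus, taken from C57BL/6J males that were 2 to 4 months old. Experiment 1 compared 5 libraries of tTA+/DN+ mice with 6 of littermate controls, tTA+/DN-, and all 11 came from mice with the exposure that the labels call SOR. Experiment 2 used DN- mice only and compared 4 libraries after SOR with 4 of mice kept in the homecage. In experiment 2, SOR replicate 1 and homecage replicates 1 and 2 had the genotype tTA-/DN-, and the remaining 5 libraries were tTA+/DN-. DN is a dominant-negative Nr4A transgene and tTA is the tetracycline transactivator that drives tet-controlled transgenes. The labels name neither the promoter that drives tTA nor the meaning of SOR, and they do not say whether a library came from 1 animal, so p-values measure the spread between these samples.

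Proteins that enter the secretory pathway acquire disulfide bonds in the ER. Isomerases of the thioredoxin fold form these bonds, and reshuffle wrong ones, through active-site cysteines that are recharged by ER oxidases of the Ero1 type. Neurons depend on this route for their receptors, ion channels, adhesion molecules and secreted peptides. Several isomerase genes, together with the ER chaperone gene Hspa5 (BiP), are classical targets of the unfolded protein response, in which XBP1 and ATF6 act on the ER stress response element (ERSE) of promoters.

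Because this element is what several of these genes are known to share, their promoters were searched for it in RefSeq windows of GRCm38.p6 that run from 250 bases before to 50 bases after each annotated start. The table held 11 windows for 8 of the 9 genes. Erp29 was not among them. The element searched, on both strands, was CCAAT and CCACG with 9 bases of any kind between them, which makes 10 fixed letters. An exact match stood in 0.119% of all 32851 windows of this length, and among the 9 genes in that of Pdia6. Allowing 1 fixed letter to differ, 1.504% of all windows matched, and so did 5 of the 11, belonging to Pdia3, Pdia4, Pdia6 and Erp44 (2 overlapping windows that share 1 match). These windows held 60.0 to 75.7% G and C, against a median of 52.7% over all windows, and the shares were not matched for this. The matches are shown with 5 flanking bases on either side, 5′ to 3′ on the strand of the gene, with the matching fixed letters in capitals and Hspa5 for reference.
Hspa5, chr2:34772020-34772048, plus strand: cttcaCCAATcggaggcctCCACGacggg
Pdia6, chr12:17266486-17266514, plus strand: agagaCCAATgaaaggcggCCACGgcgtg
Pdia3, chr2:121413868-121413896, plus strand: cgcagCCAATcggcggctgCCACactgcg
Pdia4, chr6:47813597-47813625, minus strand: aaccgaGTGGcagcccgtgATTGGtggtc
Erp44, chr4:48279738-48279766, minus strand: cccttCCAATcccgaagagCCcCGcgcac
In Pdia4 the element lies on the strand opposite to the gene. The Pdia6 match began 98 bases before the annotated start, and the stretch around it is printed because it holds further copies of the element's parts, with CCAAT and CCACG in capitals on either strand.
Pdia6, chr12:17266439-17266538, plus strand: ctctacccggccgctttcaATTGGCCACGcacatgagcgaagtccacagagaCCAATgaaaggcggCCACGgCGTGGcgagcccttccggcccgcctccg
The UPRE letters TGACGTGG stood in 1 window of Txndc5 and in 0.676% of all windows. Of the 11 windows, none held ERSE-II (ATTGG and CCACG with 1 base between them, 0.0365% of all), the Nr4A element NBRE (AAAGGTCA, 1.51%) or CRE (TGACGTCA, 1.79%), all searched on both strands. A match describes letters in this window and was not tested as a binding site.

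Total counts per library lay between 22258159 and 66991576. SOR replicate 3 of experiment 2 had the smallest total and the fewest genes detected (27815, against 30165 to 32495 in the others). Levels are given in CPM, counts scaled to a fixed library total with TMM factors, and the experiments were scaled separately. The hippocampal neuron list of 7 genes, which includes Slc17a7, Camk2a and Prox1, summed to 3918 to 5430.4 CPM over all libraries. The lowest sum was that of SOR replicate 3, and each of the 7 was detected in every library. Markers of the choroid plexus, a secretory epithelium next to the hippocampus, summed over 8 genes to 19.1 to 4156 CPM, and 1 of them had no count in 1 library, control replicate 4 of experiment 1. In 5 libraries the choroid plexus marker Ttr exceeded 500 CPM: control replicates 1 and 2 and DN replicate 2 of experiment 1, and SOR replicates 1 and 2 of experiment 2. For the SOR and DN comparisons, members that moved by over 1.5 times without these libraries are given below. In bulk tissue, fewer cells of a type and less RNA per cell cannot be told apart.

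In the homecage hippocampus 4 of the 9 genes stood above the others. Levels between genes are compared here per kb of annotated exon, in the homecage mice (n = 4, mean ± SD). P4hb, the classical isomerase and the beta subunit of prolyl 4-hydroxylase, was at 48.3 ± 3.89 CPM per kb. Pdia3 (ERp57), which acts on glycoproteins held by calnexin and calreticulin, was at 47.4 ± 3.46 CPM per kb. Pdia6 (P5), an isomerase that works with BiP, followed at 36.6 ± 3.45 CPM per kb and Pdia4 (ERp72) at 33.0 ± 3.90 CPM per kb. Neither P4hb and Pdia3 nor Pdia6 and Pdia4 differed beyond their spread. Of the wider family described further on, the membrane-bound Tmx2 (60.1 ± 5.67 CPM per kb) lay above all 4 and Tmx4 (39.98 ± 1.57) between them.

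The other 5 members lay below. The membrane-anchored Tmx1 was at 14.4 ± 1.18 CPM per kb, Txndc5 (ERp46) at 11.96 ± 0.920, Erp44 at 10.4 ± 0.740 and Erp29 at 6.55 ± 0.511. The ranges of Tmx1 and Txndc5 overlapped, as did those of Txndc5 and Erp44. Erp44 retrieves cargo and Ero1 oxidases from the early secretory pathway, and Erp29 lacks the active-site cysteine pair. The lowest was Pdia5, at 0.798 ± 0.0849 CPM per kb and 45 to 144 counts per library over both experiments. The order depends on the length used. Per kb of the principal transcript Pdia6 led with 63.0 ± 5.93 CPM per kb, ahead of Pdia3 with 53.7 ± 3.93 and P4hb with 48.3 ± 3.89, and Txndc5 (18.9 ± 1.45) stood beside Tmx1 (17.0 ± 1.39).

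**Figure D1:**
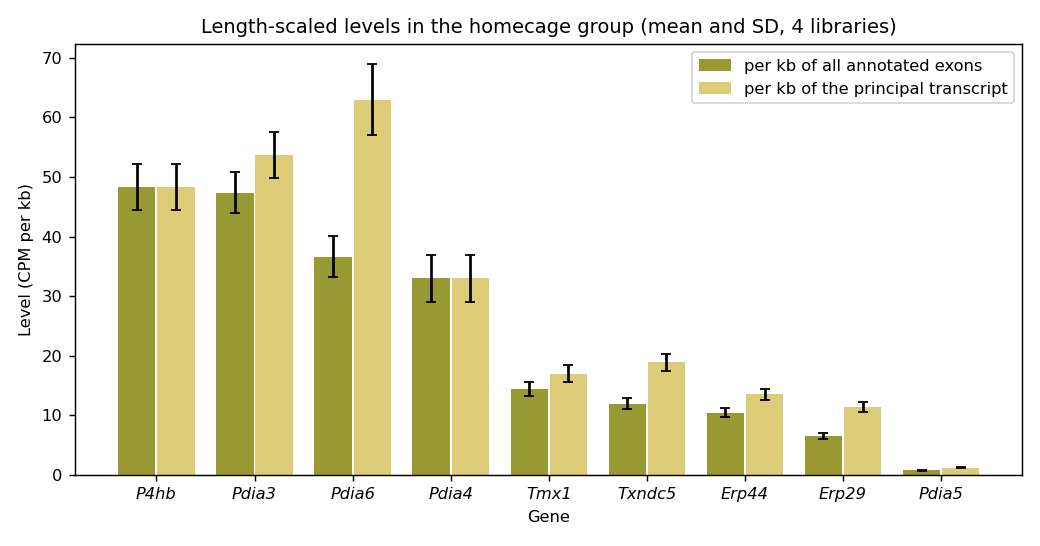
Mean level in CPM per kb (vertical axis) of the 9 genes in the 4 homecage libraries, with SD, per kb of all annotated exons (dark) and of the principal transcript (light). P4hb, Pdia3, Pdia6 and Pdia4 lie between 33.0 and 63.0 CPM per kb on both scales, and Pdia5 at 0.798 and 1.22.

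Each gene lies on a chromosome of its own except Pdia6 and Tmx1, which lie far apart on chromosome 12. Identifiers are those of the count table, and for Txndc5 and Pdia5 GENCODE M21 holds the next version. In GRCm38 (GENCODE M21), P4hb (ENSMUSG00000025130.11) spans chr11:120560298-120573253 with 15 annotated exons and Pdia3 (ENSMUSG00000027248.13) spans chr2:121413775-121438687 with 19. Pdia4 (ENSMUSG00000025823.9) spans chr6:47796141-47813430 with 12 exons and Pdia6 (ENSMUSG00000020571.12) spans chr12:17266545-17284770 with 20. Tmx1 (ENSMUSG00000021072.12) spans chr12:70453095-70468040, Txndc5 (ENSMUSG00000038991.16) chr13:38500079-38528824 and Pdia5 (ENSMUSG00000022844.7) chr16:35397312-35490873. Erp44 (ENSMUSG00000028343.10) spans chr4:48193323-48279558 and Erp29 (ENSMUSG00000029616.9) chr5:121428590-121452506. Genes on the opposite strand overlap 26.4% of the exon bases of Erp29. Naa25 alone overlaps 24.4%, with a mean of 2818.1 counts per library against 2352.4 for Erp29. Whether counting used strand is not given in the sources used here, so the Erp29 values are uncertain. The same holds for Txndc5, where opposite-strand genes (Bmp6 and Gm31834) overlap 11.9% of exon bases. There Bmp6 had a mean of 177.3 counts per library against 2162.2 for Txndc5, and Gm31834 was not in the count table. In the other 7 all overlapping genes cover at most 1.3%.

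The comparison of SOR with homecage mice asked which of these genes differ with exposure. After SOR, Pdia4 and Pdia6 stood at 1.55 and 1.56 times the homecage level, Pdia3 and P4hb were higher by a smaller step, and in all 4 every SOR library lay above every homecage library. Txndc5, Tmx1, Erp44, Erp29 and Pdia5 overlapped between the groups. No member passed an adjusted p of 0.05 in edgeR's quasi-likelihood test over all 22305 genes tested, where 0.0897% of genes did, so none is reported as changed.

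In replicates 1 to 4, Pdia6 measured 216, 186, 267 and 185 CPM in SOR mice against 150.2, 121, 144 and 132 CPM in the homecage. The lowest SOR library thus stood above the highest homecage library, and SOR replicate 3 stood apart at the top. The group means were 214 ± 38.4 and 137 ± 12.9 CPM (SD, n = 4 each). This was a ratio of 1.56 and a log2 fold change of 0.64 (SE 0.124). EdgeR gave it an unadjusted p of 2.71e-04, or 0.147 once adjusted.

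Pdia4 measured 121, 112, 145 and 114 CPM in SOR mice against 84.9, 66.4, 87.2 and 78.0 CPM in the homecage, again without overlap and with SOR replicate 3 highest. Its means were 123 ± 15.1 and 79.1 ± 9.35 CPM (SD, n = 4 each). In edgeR the log2 fold change was 0.64 (SE 0.111), a ratio of 1.55, and the adjusted p was 0.0853. The unadjusted p was 1.18e-04, which ranked Pdia4 at 31 among the genes tested and Pdia6 at 41.

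These 2 genes are the members whose call depends on the analysis. Both passed with DESeq2 (adjusted p 3.82e-04 for Pdia4 and 0.00250 for Pdia6), without a filter on low counts (0.0163 and 0.0249) and with all 19 libraries in 1 edgeR fit (0.0106 and 0.0174). Limma-voom called neither (0.0808 and 0.141). Leaving out SOR replicate 3, edgeR called both (adjusted p 0.0410 and 0.0436), with smaller log2 fold changes of 0.55 and 0.52. Over all alternatives the log2 fold change ranged from 0.55 to 0.71 for Pdia4 and from 0.52 to 0.72 for Pdia6. The adjusted p reached 0.998 for both in the tTA+ mice alone, a fit of 3 SOR and 2 homecage libraries that called no gene of the table.

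Pdia3 measured 189.7, 181, 205 and 173 CPM in SOR mice against 158, 134, 155 and 147 CPM in the homecage. Its groups did not overlap, and the log2 fold change was 0.33 (SE 0.0858, edgeR adjusted p 0.378). P4hb measured 153, 149, 194 and 153 CPM in SOR mice against 138, 122, 147 and 145 CPM in the homecage. Here the groups were separated by little, 149 against 147 CPM, and SOR replicate 3 stood far above the other 3. The log2 fold change of P4hb was 0.23 (SE 0.103, edgeR adjusted p 0.652), and 0.13 without SOR replicate 3.

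Erp29 measured 69.5, 57.2, 94.3 and 69.1 CPM in SOR mice against 60.2, 52.6, 61.9 and 62.7 CPM in the homecage, and SOR replicate 2 lay inside the homecage range. Its log2 fold change was 0.29 (SE 0.136, edgeR adjusted p 0.661), and 0.14 without SOR replicate 3. Txndc5 measured 58.0, 52.6, 71.2 and 51.7 CPM in SOR mice against 51.8, 49.0, 58.4 and 55.6 CPM in the homecage, a log2 fold change of 0.12 (SE 0.112). Its groups overlapped, and 3 of its SOR libraries lay within the homecage range.

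Tmx1 measured 54.1, 46.2, 43.3 and 65.2 CPM in SOR mice against 46.1, 42.5, 50.8 and 50.2 CPM in the homecage, a log2 fold change of 0.14 (SE 0.127). Erp44 measured 41.6, 38.4, 27.9 and 45.8 CPM in SOR mice against 33.4, 33.2, 37.3 and 38.1 CPM in the homecage, a log2 fold change of 0.12 (SE 0.135). In this pair SOR replicate 3 was the lowest SOR library, opposite to its place in the other 7 members, where it was the highest of them. Pdia5 measured 1.91, 1.72, 2.41 and 1.74 CPM in SOR mice against 2.55, 2.01, 2.11 and 2.19 CPM in the homecage. It was the 1 member with a lower mean after SOR (log2 fold change -0.19, SE 0.182), and its groups overlapped. With 1 library left out the log2 fold change came to 0.01 for Txndc5 (without SOR replicate 3), 0.01 for Tmx1 and 0.02 for Erp44 (both without SOR replicate 4), and without SOR replicate 3 it was 0.22 for Tmx1, 0.24 for Erp44 and -0.30 for Pdia5.

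**Figure D2:**
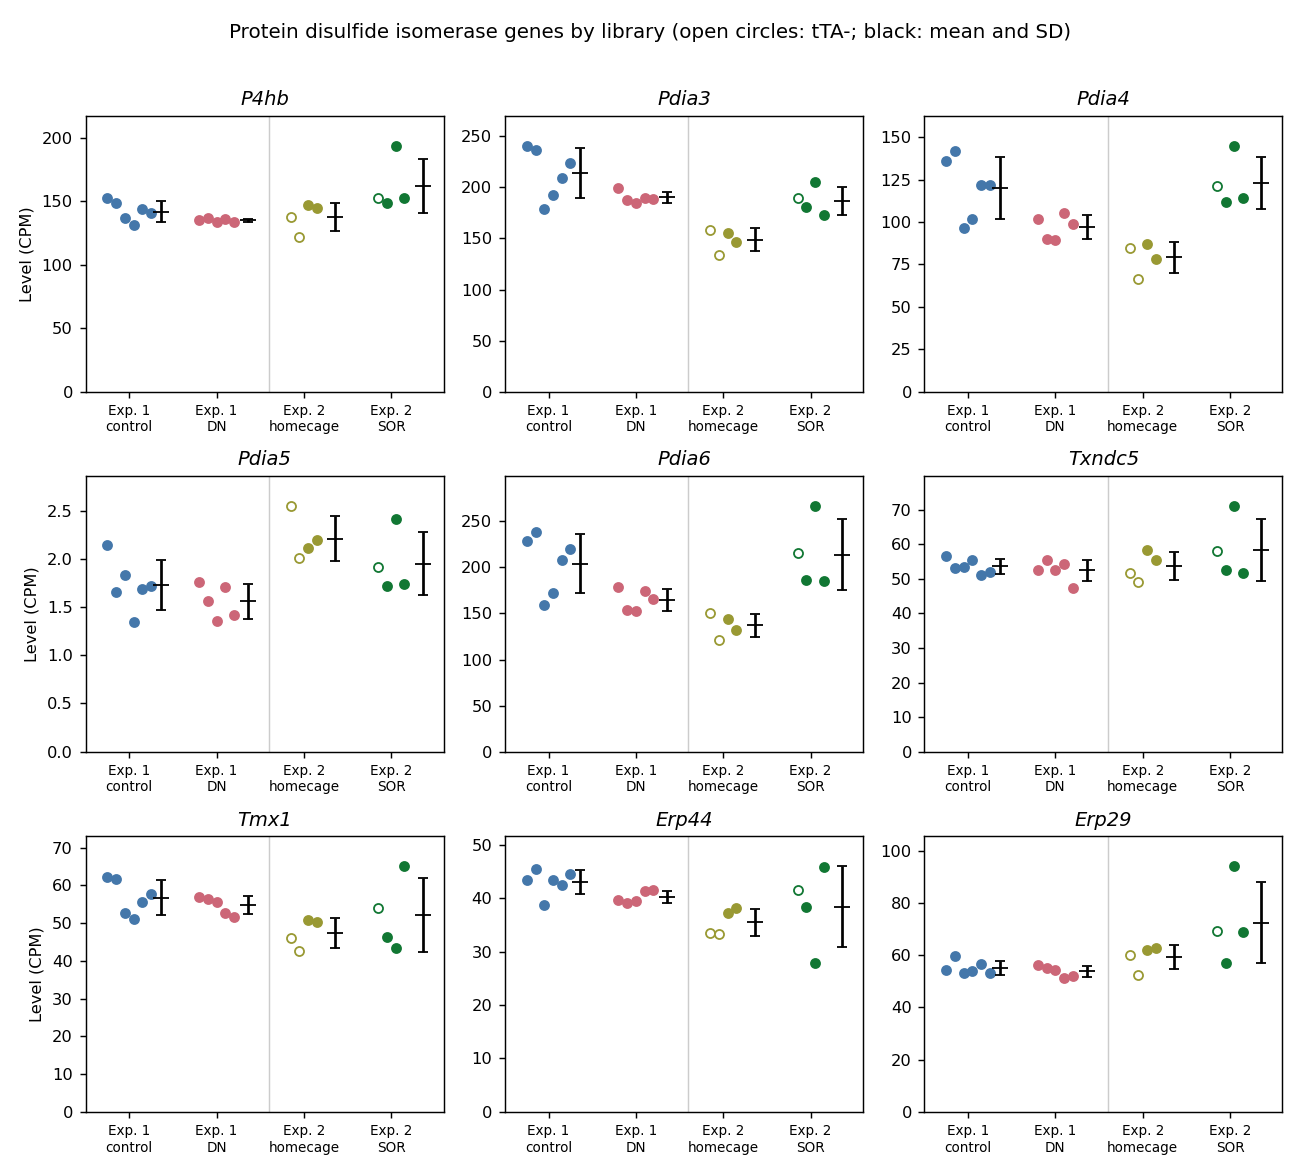
Level in CPM (vertical axis, from 0) of each gene in each of the 19 libraries, by group, with mean and SD in black; open circles are tTA- mice. The SOR libraries of Pdia4 (112 to 145 CPM) all lie above the homecage libraries (66.4 to 87.2 CPM), while the groups of Txndc5, Tmx1, Erp44, Erp29 and Pdia5 overlap.

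Counted over the 9 genes, 8 had a positive log2 fold change with SOR, against 51.5% of all genes tested, and the median was 0.23, against 0.01. At an unadjusted p under 0.05, 4 of 9 were higher and none lower, where 3.67% of all genes were higher. Groups did not overlap, with SOR above, in 4 of 9 and in 3.06% of all genes. DESeq2 called 2 of the 9 and 0.695% of the 17546 genes with an adjusted p, and limma-voom called 0 of the 9 and 0.108% of all genes. Without SOR replicates 1 and 2 the median of the 9 was 0.33, and the log2 fold change was 0.46 for Erp29, 0.19 for Txndc5, 0.05 for Erp44 and -0.11 for Pdia5.

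The summed level of the 9 genes was 824 to 1049.9 CPM in the SOR libraries and 623 to 745 CPM in the homecage libraries. SOR replicate 3 held the highest value in 6 of the 9 genes, and homecage replicate 2 held the lowest in 7. The choroid plexus list differed in the same direction: all 8 markers had positive log2 fold changes (median 2.31), none was called, and the sums were 22.8 to 2199 CPM after SOR and 44.0 to 171 CPM in the homecage. SOR replicate 3, with the lowest choroid plexus sum of the 8 libraries (22.8 CPM), had the highest Pdia6 level. Without SOR replicates 1 and 2, the log2 fold change was 0.71 for Pdia4 and 0.72 for Pdia6, with an edgeR adjusted p of 0.333 for both in 2 against 4 libraries. That fit rests on SOR replicates 3 and 4, of which replicate 3 stood apart, as above. Oligodendrocyte markers (8 genes) summed to 6149 to 7248 CPM after SOR and 5665 to 6758 CPM in the homecage. At an unadjusted p under 0.05, 5 of 8 choroid plexus, 2 of 8 oligodendrocyte, 2 of 5 microglia, 1 of 5 astrocyte and 1 of 5 blood markers were higher. Of all genes tested 3.67% were, and of the 7 meninges and 7 hippocampal neuron markers none. Of 5 endothelial markers 1 was lower, Kdr (log2 fold change -0.55, SE 0.109, edgeR adjusted p 0.157, groups not overlapping). EdgeR called none of these markers, and Kdr passed with DESeq2 (adjusted p 0.00189), with all 19 libraries (0.0467) and without SOR replicate 3 (0.0411). The part of these cell types in the result was not tested.

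**Figure D3:**
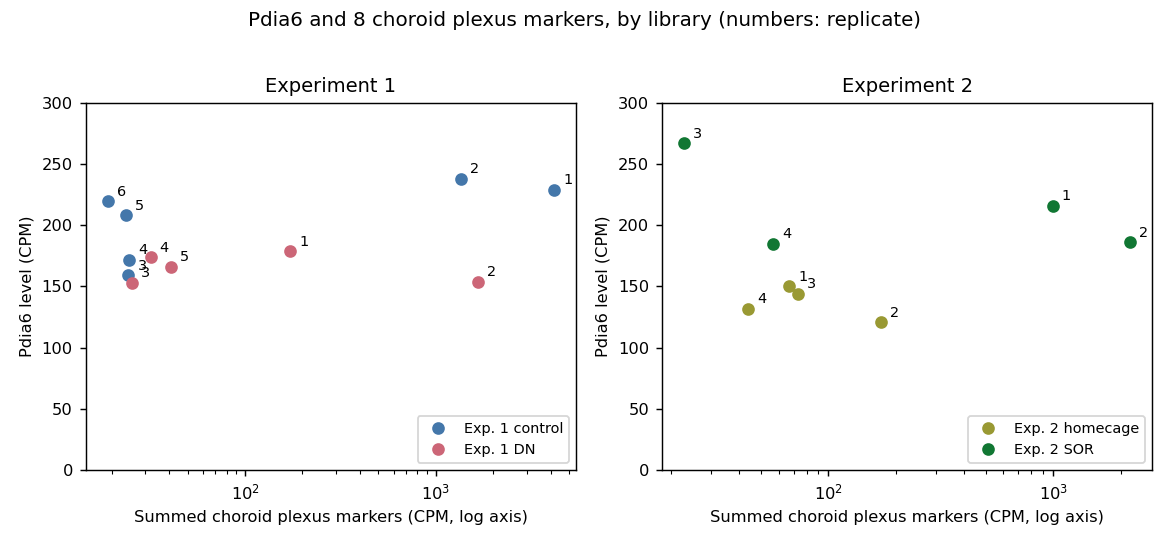
Pdia6 level in CPM (vertical axis) against the summed level of 8 choroid plexus markers in CPM (log axis) for each library, numbered by replicate, in experiment 1 (left) and experiment 2 (right). In experiment 2 the 4 SOR libraries lie at 185 to 267 CPM of Pdia6, above all homecage libraries, at choroid plexus sums from 22.8 to 2199 CPM.

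The comparison of DN with control mice asked whether these genes differ with the transgene when all mice had SOR. All 9 had a negative log2 fold change with DN, as did 11191 of all 22391 genes tested, and in every one of the 9 the groups overlapped, while DN lay wholly below the controls in 0.103% of all genes. The fitted ratios to the controls ran from 0.808 for Pdia6 and 0.809 for Pdia4 to 0.978 for Txndc5. No member was called by edgeR, DESeq2 or limma-voom, and 0.00893% of 22391 genes were called by edgeR.

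Pdia4 measured 102, 90.1, 89.2, 105 and 99.0 CPM in the DN mice, in order of replicate, against a lowest of 96.7, a median of 122 and a highest of 142 CPM in the 6 controls. DN libraries were close together, and 2 of the controls, replicates 3 and 4, lay among them at 96.7 and 102 CPM. By edgeR, Pdia4 had a log2 fold change of -0.31 (SE 0.105). The unadjusted p was 0.0165 and the adjusted p 0.999.

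Pdia6 was at 179, 154, 153, 174 and 166 CPM in DN mice and at 229, 238, 159, 172, 208 and 219.9 CPM in control replicates 1 to 6. The same 2 controls, replicates 3 and 4, fell within the DN range. Its log2 fold change was -0.31 (SE 0.110, edgeR adjusted p 0.999). Pdia3 was at 199.9, 188, 185, 189.7 and 189 CPM in DN mice and at 241, 237, 179, 193, 209.7 and 224 CPM in controls, where replicate 3 was the lowest of the 11 libraries. For Pdia3 the log2 fold change was -0.17 (SE 0.0671, edgeR adjusted p 0.999).

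P4hb lay between 134 and 137 CPM in all 5 DN libraries (coefficient of variation 1.03%) and between 131 and 153 CPM in the controls (5.60%), a log2 fold change of -0.07 (SE 0.0367). The DN libraries sat inside the control range. Erp44 was at 39.7, 39.1, 39.5, 41.4 and 41.5 CPM in DN mice and at 43.3, 45.4, 38.8, 43.3, 42.5 and 44.6 CPM in controls, a log2 fold change of -0.10 (SE 0.0437). Of the controls, replicate 3 alone lay below the DN libraries.

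Tmx1 (51.6 to 57.0 CPM in DN mice and 51.2 to 62.2 CPM in controls), Erp29 (51.4 to 56.2 and 53.0 to 59.8 CPM) and Txndc5 (47.5 to 55.4 and 51.1 to 56.7 CPM) had log2 fold changes of -0.05, -0.04 and -0.03, and the groups of each overlapped. Pdia5, at 1.35 to 1.76 CPM in DN mice and 1.34 to 2.14 CPM in controls, had a log2 fold change of -0.14 (SE 0.143). With 1 library left out, Pdia5 came to -0.21 without control replicate 4, -0.09 without DN replicate 3 and -0.08 without control replicate 1. Erp29 came to -0.01 without control replicate 2 and -0.02 without DN replicate 4 or 5, and Tmx1 to -0.08 without control replicate 4 and -0.03 without DN replicate 5 or control replicate 1 or 2.

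At an unadjusted p under 0.05, Pdia3, Pdia4, Pdia6 and Erp44 were lower, 4 of 9 against 1.81% of all genes tested. This count was 1 to 5 with 1 library left out, at 1 without DN replicate 3 and 2 without DN replicate 2 or control replicate 1, 2 or 6. The median log2 fold change of the 9 was -0.10, against 0.00 for all genes tested. The controls varied more than the DN mice in summed level, at 772 to 987 CPM (median 903) against 765 to 824 CPM (median 782).

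Control replicates 1 and 2, both rich in choroid plexus RNA with marker sums of 4156 and 1361 CPM, held the highest value of all 11 libraries in every one of the 9 genes, 5 in replicate 1 and 4 in replicate 2. DN replicate 2 had a choroid plexus sum of 1661 CPM and the second lowest Pdia4 and Pdia6 levels of its group. Without these 3 libraries the log2 fold changes came down to -0.16 for Pdia4, -0.18 for Pdia6, -0.07 for Pdia3, -0.07 for Pdia5, -0.06 for Erp44, -0.03 for P4hb, -0.02 for Erp29 and 0.0008 for Tmx1, in 4 DN against 4 control libraries. The median of the 9 became -0.06, and at an unadjusted p under 0.05 the count of lower members became 0 of 9, against 1.57% of all genes. All 8 choroid plexus markers had negative log2 fold changes with DN (median -0.99, none called by edgeR, DESeq2 or limma-voom). At an unadjusted p under 0.05, 2 of 8 oligodendrocyte markers were lower (Mbp and Cldn11, both at -0.11), where 1.81% of all genes were. So were 2 of 5 astrocyte markers (Aqp4 at -0.10 and Gja1 at -0.08), and none was called. Their sums were 6487 to 7122 CPM in DN mice and 6746 to 7965 CPM in controls for oligodendrocytes, and 1511 to 1689 and 1573 to 1691 CPM for astrocytes. The part of these cell types in the DN values was not tested beyond these numbers.

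**Figure D4:**
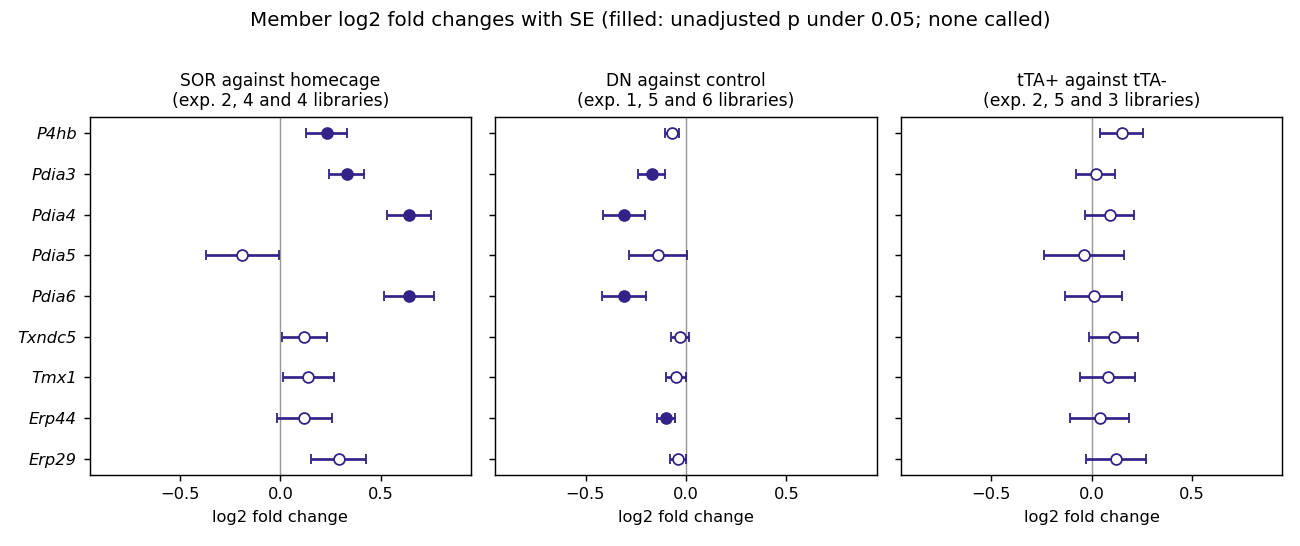
Log2 fold change with SE (horizontal axis) of each gene in 3 comparisons: SOR against homecage (left), DN against control (middle) and tTA+ against tTA- (right); filled points have an unadjusted p under 0.05 and none passed the adjusted threshold. Pdia4 and Pdia6 lie furthest from 0 in both of the first 2 panels, at 0.64 with SOR and at -0.31 with DN.

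Within experiment 2, tTA+ and tTA- mice were compared with exposure in the model, since the genotypes are spread unevenly over the groups. No member was called by edgeR, DESeq2 or limma-voom, none had an unadjusted p under 0.05 (5.71% of all genes did), and 0.358% of 22904 genes were called by edgeR. The log2 fold changes ran from -0.04 (Pdia5, SE 0.199) to 0.15 (P4hb, SE 0.108), with a median of 0.08 against 0.01 for all genes. With 1 library left out this median ranged from 0.00 (without homecage replicate 2) to 0.15 (without SOR replicate 1). It was 0.03 without homecage replicate 3 or SOR replicate 3, 0.04 without SOR replicate 4 and -0.01 with a replicate block. P4hb ranged from 0.09 to 0.18 over libraries left out. Pdia6 was at 132 to 267 CPM in the 5 tTA+ libraries and at 121 to 216 CPM in the 3 tTA- libraries, a log2 fold change of 0.01 (SE 0.140). With tTA as a covariate of the SOR comparison, the log2 fold changes with SOR were 0.62 for Pdia4 and 0.64 for Pdia6, with edgeR adjusted p of 0.201 and 0.284.

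In the wider family edgeR, DESeq2 and limma-voom called no gene in any of the 3 comparisons. Of 13 further genes with isomerase or thioredoxin-like ER domains, 9 could be tested with SOR, and Pdia2, Pdilt, Agr2 and Agr3 did not pass the filter on low counts. With SOR 6 had positive and 3 negative log2 fold changes, with a median of 0.01 and none called. The highest was Txndc15 (0.34, SE 0.147, edgeR adjusted p 0.642) and the lowest Erp27 (-0.24, SE 0.406), a non-catalytic relative at 0.219 CPM in the homecage. With DN the 8 tested ran from Txndc11 (-0.07) to Tmx4 (0.04), and with tTA 9 ran from Erp27 (-0.17) to Txndc15 (0.25).

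ER oxidative folding, the supply of oxidising power to the isomerases, was represented by 10 genes. With SOR 8 had positive log2 fold changes (51.5% of all genes did), 2 were higher at an unadjusted p under 0.05 (3.67% of all genes), and edgeR called none. Ero1b, an oxidase that recharges P4hb, measured 39.5, 40.4, 37.7 and 39.7 CPM in SOR mice against 30.9, 31.1, 31.0 and 32.0 CPM in the homecage. These groups were tight and did not overlap, and the log2 fold change was 0.33 (SE 0.0747, edgeR adjusted p 0.267). DESeq2 called it (adjusted p 0.00197), as did edgeR with all 19 libraries in 1 fit (0.0145), and limma-voom did not (0.267). Its paralogue Ero1a had 0.04 (SE 0.0786). Extremes of this list were Gpx8, an ER peroxidase, at 0.44 and Vkorc1l1 at -0.07. With DN it ran from Gpx8 (-0.29) to Prdx4 (0.08), and with tTA from Ero1a (-0.01) to Vkorc1 (0.19).

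Among 11 genes whose products bind or depend on an isomerase, edgeR called 1 with SOR, where 0.0897% of all genes were called. Limma-voom also called 1 (0.108% of all genes), and DESeq2 called 3 (0.695% of the 17546 genes with an adjusted p). P4ha1, the catalytic alpha subunit that pairs with P4hb in prolyl 4-hydroxylase, measured 141, 127, 135 and 123 CPM in SOR mice against 86.1, 76.9, 86.6 and 87.1 CPM in the homecage. The groups were far apart, and the log2 fold change was 0.64 (SE 0.0799, edgeR adjusted p 0.0130). Leaving out libraries 1 at a time gave 0.60 to 0.67 with adjusted p from 0.00563 to 0.0863, and the call was lost without homecage replicate 1, 2, 3 or 4 or SOR replicate 1. It was also lost in tTA+ mice alone (0.56, adjusted p 0.998), where no gene of the table was called. Without SOR replicates 1 and 2 it was lost too (0.61, adjusted p 0.298).

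P4ha2, its paralogue, measured 12.5, 14.5, 18.0 and 12.05 CPM in SOR mice against 8.21, 7.998, 8.67 and 9.33 CPM in the homecage, with a log2 fold change of 0.73 (SE 0.137, edgeR adjusted p 0.118). It passed with DESeq2 (adjusted p 6.57e-04), without a filter on low counts (0.0432), with all 19 libraries in 1 edgeR fit (0.0118) and without SOR replicate 3 (0.0436, log2 fold change 0.60). P4ha3, the remaining alpha subunit, was low (1.38 CPM in the homecage) and had a log2 fold change of 0.02 (SE 0.223). Differences between the ratios of P4hb and these subunits were not tested. Calr, the lectin chaperone calreticulin that recruits Pdia3, measured 545, 528, 600.0 and 489 CPM in SOR mice against 404, 390.3, 427 and 396 CPM in the homecage. Its groups did not overlap (log2 fold change 0.42, SE 0.0831, edgeR adjusted p 0.157), and it passed with DESeq2 (adjusted p 0.00235) and with all 19 libraries (0.0192). Canx, the membrane-bound calnexin, had 0.16 (SE 0.0826). In all 9 of the 11 were positive with SOR, against 51.5% of all genes, with a median of 0.10, and the lowest was Erap1 at -0.06.

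With DN none of the 11 was called by edgeR, and 1, Calr, was lower at an unadjusted p under 0.05 (log2 fold change -0.17, SE 0.0787), where 1.81% of all genes were. P4ha1 was the lowest at -0.23 (SE 0.138) and Mttp, which forms the microsomal triglyceride transfer protein with P4hb, the highest at 0.16 (SE 0.0809). Without the 3 libraries rich in choroid plexus RNA, the log2 fold change was -0.09 for Calr (unadjusted p 0.320) and -0.04 for P4ha1. With tTA the list ran from Itpr1 (-0.04) to P4ha3 (0.40, SE 0.220), none called.

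As references, Hspa5 and Xbp1 rose with SOR. Xbp1, a transcription factor of the unfolded protein response, measured 140.0, 125, 135 and 130.3 CPM in SOR mice against 82.2, 75.2, 84.7 and 84.3 CPM in the homecage. Its log2 fold change was 0.70 (SE 0.0770, edgeR adjusted p 0.00879). Hspa5 had 0.87 (SE 0.119), above the 0.64 of Pdia4 and Pdia6. Both calls were lost in tTA+ mice alone (edgeR adjusted p 0.998 for both), where no gene of the table was called. They were also lost without SOR replicates 1 and 2 (0.288 for Hspa5 and 0.164 for Xbp1). Without homecage replicate 1, 2 or 3 or SOR replicate 1 they were lost as well (0.0569 to 0.124 over both genes). The call of Hspa5 was also lost with tTA as a covariate (0.0632) and without homecage replicate 4 (0.138). With DN the values were -0.36 (SE 0.145) for Hspa5 and -0.24 (SE 0.118) for Xbp1, neither called. Without the 3 libraries rich in choroid plexus RNA they were -0.17 and -0.08.

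Replicates of a group also varied together. After each log2 CPM was centred on its group mean over the 19 libraries, Pdia3, Pdia4 and Pdia6 had Pearson correlations of 0.93 to 0.96 with each other and of 0.95 to 0.97 with Hspa5 (Spearman 0.92 to 0.96 and 0.95 to 0.98). These values held in each experiment, at 0.92 to 0.98 among the 3 genes in experiment 1 and 0.93 to 0.96 in experiment 2. The 36 pairs of the whole set ranged from -0.56 to 0.96, with a median of 0.49 and 9 pairs below 0. Their median was 0.46 in experiment 1 (4 pairs below 0) and 0.81 in experiment 2 (14 pairs below 0). All genes of a library share its depth and dissection, so the correlations are descriptions.

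Among the other members, P4hb had 0.85 with Erp29 (0.43 in experiment 1 and 0.93 in experiment 2), and Txndc5 had 0.75 with Erp29 (0.03 and 0.89). Erp44 had 0.75 with Tmx1 (0.31 and 0.86). Against Pdia6, Erp44 had 0.75 in experiment 1 and -0.70 in experiment 2, where it was lowest and Pdia6 highest in SOR replicate 3. Txndc5 had 0.78 with P4hb (0.16 in experiment 1 and 0.93 in experiment 2).

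Of 21731 genes searched, those most like the mean of the 9 by Pearson correlation of centred log2 CPM over 19 libraries were Bcap31 (0.92), Rpn1 (0.91), Hmgn1 (0.88), Stip1 (0.88) and Hspa5 (0.88). Bcap31 is an ER membrane protein of cargo export, Rpn1 a subunit of the oligosaccharyltransferase, Hmgn1 a nucleosome-binding protein and Stip1 a co-chaperone of the cytosol. Without SOR replicate 3 the values were 0.86 to 0.90. Of these 5, edgeR called Hspa5 alone with SOR, and the others had log2 fold changes of 0.23 to 0.35.

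**Figure D5:**
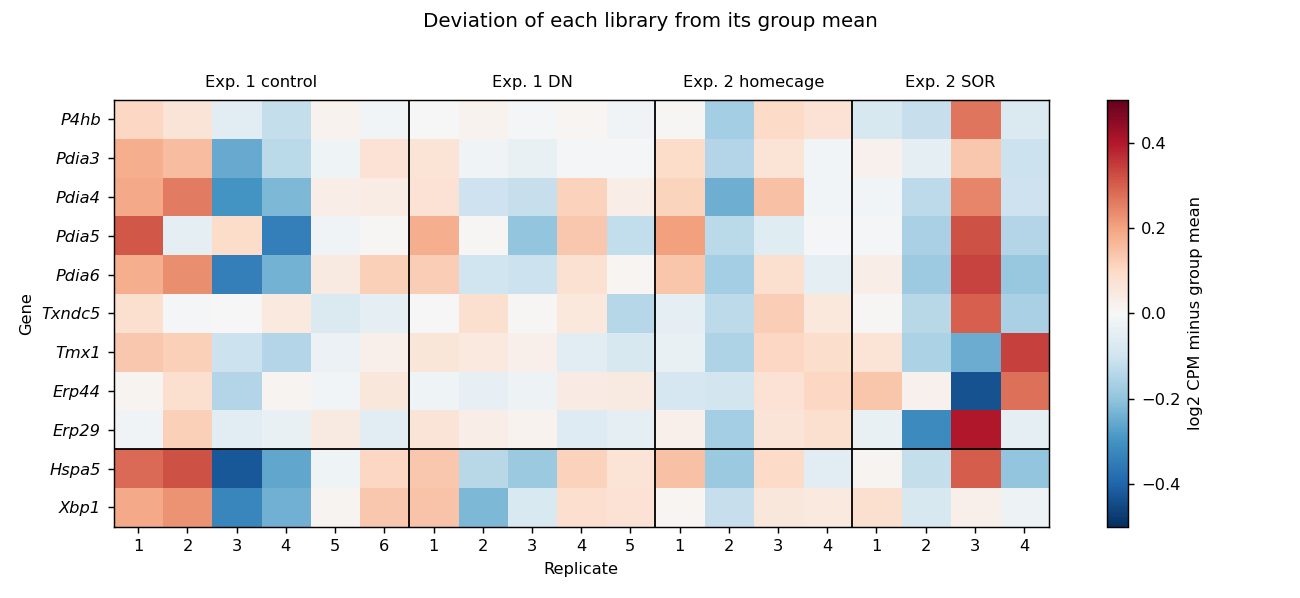
Deviation of log2 CPM from the group mean (colour, red above and blue below) for the 9 genes, Hspa5 and Xbp1 (rows) in each library (columns, by group and replicate). Control replicates 3 and 4 are below and replicates 1 and 2 above their mean in Pdia3, Pdia4, Pdia6, Hspa5 and Xbp1, and in SOR replicate 3 Erp44 and Tmx1 are below while the other 7 members are above.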

How the data were processed

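Per the labels' protocols, frozen tissue was taken up in Trizol and the total RNA was made into TruSeq libraries after Ribo-Zero gold depletion. The authors deposited whole-number read counts per gene, not normalized. STAR, SAMtools 1.6, featureCounts 1.4.4 and mm10 are named in the submitters' processing notes, with no settings. The annotation, the use of strand and the treatment of multiply mapped reads are not given in the sources used here. Symbols, positions and exon lengths came from GENCODE M21, which held 51596 of the 51789 identifiers.

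Each experiment was fitted alone over the whole table with edgeR 4.0.16 (glmQLFit with robust dispersion, two-sided quasi-likelihood F test, TMM, filterByExpr) under R 4.3.3. Calls are genes whose Benjamini-Hochberg value, over every gene tested, is below 0.05. The SE is the absolute log2 fold change over the square root of F. CPM were computed from the deposited counts, and centred values are log2 CPM with a prior count of 2. Replicates differed by more than counting noise (chi-square per degree of freedom of 4.63 to 73.4). The highest values, 53.02, 56.1 and 73.4, were those of the pairs with SOR replicate 3 of experiment 2. There were no molecular identifiers, so reads may repeat molecules.

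The genes and lists were chosen with earlier results of these data known. All 9 genes, Hspa5 and Xbp1 were named, and of 3 lists (13 other family members, 10 genes of oxidative folding, 11 partners) the called genes and those with the highest and lowest log2 fold change. The 5 genes most like the mean of the 9 were also named. Calr, Canx, Ero1b, Tmx2, Kdr and 4 glial markers, and Ero1a and P4ha3 with SOR, were named after their values were seen. Alternatives were other scalings and filters, an adjusted p under 0.1, DESeq2 1.42.0, limma-voom 3.58.1, 1 fit of all libraries, a replicate block, a fit with tTA as a covariate or of the tTA+ mice, and fits without each library. Leaving out the libraries with Ttr above 500 CPM was chosen after seeing the data.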

Additional observations from a re-analysis of the deposited data

Results flagged for a closer look

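P4hb in SOR replicate 3 of experiment 2 was at 194 CPM, far above the other 3 SOR libraries, which lay at 149 to 153 CPM. Its gap to the next library was 0.904 of the range of the group, above the critical value of 0.829 for 4 samples. In all, 36 combinations of gene and group were looked at in this way, of which 1 stood out, and chance alone gives about 1 in 20.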

How the results depend on the processing

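The count of members called with SOR was 0 as reported, 1 at an adjusted p under 0.1 (Pdia4), and 2 (Pdia4 and Pdia6) without a filter on low counts, with DESeq2 and with all 19 libraries in 1 fit, and it ranged from 0 to 2 when 1 library was left out. With DN and with tTA it was 0 in every alternative run. The count of all genes called with SOR was 20 as reported, 35 at an adjusted p under 0.1, 36 without a filter, 122 with DESeq2, 145 with all 19 libraries in 1 fit, 11 with tTA as a covariate, 0 in tTA+ mice alone, 1 without the libraries rich in Ttr and 1 to 50 with 1 library left out (50 without SOR replicate 3). With tTA it was 82 as reported, 133 at an adjusted p under 0.1, 265 without a filter, 253 with DESeq2, 383 with all 19 libraries and 10 to 290 with 1 library left out (10 without SOR replicate 1, 290 without SOR replicate 3). With DN it was 2 throughout.

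The replicate numbers did not pair the libraries: same-numbered libraries correlated at -0.05 to 0.19 in experiment 1 and 0.05 to 0.39 in experiment 2, and 1 library in each correlated best with its own number. With a replicate block 9 genes were called with SOR and 0 with tTA. In that fit the adjusted p was 0.0523 for Pdia4 and 0.0848 for Pdia6 with SOR, and the log2 fold changes with tTA were -0.02 for Pdia6, -0.01 for Txndc5, -0.01 for Tmx1 and -0.19 for Erp29.

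Other values that were not called turned sign, and the cause was not tested. With DN these were Tmx1 (0.0008) and P4ha2 (0.12) without the libraries rich in Ttr, P4ha2 (-0.10 to 0.05 over libraries left out, with 0.05 without control replicate 2) and Txndc5 (0.003) without DN replicate 5. With SOR it was Erp44 (-0.01) in tTA+ mice alone. With tTA they were Pdia3 (-0.01) and Pdia6 (-0.02) under upper quartile scaling, Pdia6 with at least 10 counts in every library (-0.01) and with limma-voom (-0.0016), and, with 1 library left out, Pdia3 (-0.04 to 0.07), Pdia6 (-0.07 to 0.08), Erp44 (-0.03 to 0.18) and Pdia5 (-0.10 to 0.06). Depth limits Pdia5 most, at 45 to 144 counts per library.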
